A study of Mus musculus with 157 samples.

Results

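Opposite-strand noncoding RNA genes are mouse genes whose symbol is that of another gene followed by the suffix os, sometimes with a number, as in Six3os1 beside Six3. They were taken from 4 tables of RNA polymerase II (Pol II) occupancy as every noncoding RefSeq transcript, with an identifier that starts NR_, whose symbol ends in this way. Of 23629 genes with a symbol at the promoter tables, 147 met the rule, through 170 transcripts. Minos1 met it only by its spelling, as its name does not refer to an opposite strand, and it was set aside, which left 146 genes. For each gene the transcript with the most reads on average was used, a choice that mattered for the 14 genes with more than 1 transcript. The gene on the other strand, named here the sense gene, was measured for 145 of them, in 138 different genes.

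The cells were wildtype E14 mouse embryonic stem cells, an established line grown on gelatin in serum medium with leukemia inhibitory factor, either untreated (0 h) or treated with 1 µM retinoic acid for 2, 4, 6, 24, 48 or 72 h. Chromatin immunoprecipitation and sequencing (ChIP-seq) was done with 3 antibodies to Pol II: to its N-terminal domain (NTD), which marks total polymerase, and to polymerase carrying a phosphate on serine 5 (Ser5p) or on serine 2 (Ser2p) of its C-terminal repeats. The tables hold NTD and Ser5p reads up to 1 kb upstream and downstream of each transcription start site (TSS) and NTD and Ser2p reads over gene bodies. There were 17 NTD libraries, 2 each for 0, 2, 24 and 72 h and 3 each for 4, 6 and 48 h. Both phosphorylated forms had 18, as they have 1 more library of 2 h.

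Many developmental regulator genes share their promoter region with a noncoding RNA that is transcribed the other way, either divergently from a nearby start or across the coding gene. Serine 5 of the repeats is phosphorylated as Pol II initiates, and serine 2 as it elongates. In embryonic stem cells, promoters of silent developmental regulators, often CpG islands bound by Polycomb proteins, are known to carry Ser5p polymerase with little productive elongation, and retinoic acid drives such cells out of the pluripotent state.

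ChIP-seq reads do not record the strand of the RNA. Where the windows of a noncoding gene and its sense gene overlap, their reads are in part the same reads and the polymerases of the 2 genes cannot be told apart. Among the 98 pairs with both promoters in the RefSeq table (assembly GRCm38.p6), all 98 lay on opposite strands, the median distance between the starts was 3919 bases, 32 pairs had starts within 1000 bases and 43 had overlapping windows. The gene spans overlapped in 107 of 145 pairs.

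The promoters of 5 of the genes are given here, from 250 bases before the start to 50 after it, because large promoter changes described below fall on them. They are RefSeq sequences of GRCm38.p6, written 5′ to 3′ on the strand of the noncoding gene, with every CpG in capitals. Six3os1, Hoxa11os and Foxl2os lie beside homeobox or forkhead genes and lost Ser5p, whereas Lppos and Tspan2os gained Pol II. The positions are chr17:85618347-85618646 on the minus strand for Six3os1, chr6:52244993-52245292 on the plus strand for Hoxa11os, chr9:98955261-98955560 on the minus strand for Foxl2os, chr16:24393606-24393905 on the minus strand for Lppos and chr3:102735368-102735667 on the minus strand for Tspan2os.
Six3os1: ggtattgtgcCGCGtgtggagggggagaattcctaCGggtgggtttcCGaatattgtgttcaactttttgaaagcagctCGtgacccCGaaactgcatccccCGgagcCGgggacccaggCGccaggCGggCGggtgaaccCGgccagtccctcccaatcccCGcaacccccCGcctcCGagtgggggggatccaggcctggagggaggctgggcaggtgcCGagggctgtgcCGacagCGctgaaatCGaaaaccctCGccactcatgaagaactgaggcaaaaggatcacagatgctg
Hoxa11os: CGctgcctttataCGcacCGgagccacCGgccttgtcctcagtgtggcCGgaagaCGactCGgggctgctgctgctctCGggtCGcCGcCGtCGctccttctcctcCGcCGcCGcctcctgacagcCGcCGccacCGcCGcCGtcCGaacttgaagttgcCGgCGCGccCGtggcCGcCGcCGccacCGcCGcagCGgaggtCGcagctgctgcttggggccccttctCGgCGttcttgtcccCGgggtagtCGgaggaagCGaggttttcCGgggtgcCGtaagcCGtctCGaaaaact
Foxl2os: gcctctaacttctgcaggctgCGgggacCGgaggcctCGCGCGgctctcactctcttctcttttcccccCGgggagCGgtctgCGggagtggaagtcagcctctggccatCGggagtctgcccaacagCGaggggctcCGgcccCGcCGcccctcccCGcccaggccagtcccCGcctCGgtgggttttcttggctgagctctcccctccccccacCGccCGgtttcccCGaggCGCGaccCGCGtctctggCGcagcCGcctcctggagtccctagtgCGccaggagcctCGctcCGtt
Lppos: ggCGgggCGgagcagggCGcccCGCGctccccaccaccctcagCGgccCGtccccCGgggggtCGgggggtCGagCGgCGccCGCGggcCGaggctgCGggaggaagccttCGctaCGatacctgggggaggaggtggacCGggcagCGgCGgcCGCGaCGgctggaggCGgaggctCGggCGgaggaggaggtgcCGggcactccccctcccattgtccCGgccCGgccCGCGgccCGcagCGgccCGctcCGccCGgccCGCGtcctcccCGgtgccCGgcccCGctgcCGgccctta
Tspan2os: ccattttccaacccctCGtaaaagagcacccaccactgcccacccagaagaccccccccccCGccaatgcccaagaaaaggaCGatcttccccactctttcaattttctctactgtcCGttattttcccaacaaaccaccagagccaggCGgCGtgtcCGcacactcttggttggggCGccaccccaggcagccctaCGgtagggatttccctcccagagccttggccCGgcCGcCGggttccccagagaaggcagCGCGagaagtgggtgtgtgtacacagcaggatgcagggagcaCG

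These promoters hold 20, 41, 28, 43 and 15 CpGs in the order printed, against a median of 7 over all 32851 RefSeq mouse promoters of this length. Promoters were found for 117 of the 146 genes, 125 promoters in all, and their median was 8 CpGs. Each promoter was searched on both strands for retinoic acid receptor direct repeats with a spacing of 5, 2 or 1 bases, built from 4 forms of the half-site. The first form is AGGTCA. The others are AGTTCA, as well as GGGTCA, and lastly GGTTCA. None of the 5 printed promoters holds one. Among the 125 promoters, 1 holds a repeat with spacing 5 and 1 holds one with spacing 1, 0.8% each, and none holds one with spacing 2. Over all promoters the shares are 0.0974%, 0.222% and 0.268%. TATAAA is found on either strand of 8.8% of the noncoding genes' promoters, that of Hoxa11os among them, and of 13.6% of all promoters.

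Libraries held 1088159 to 3210580 NTD reads and 1504737 to 3347830 Ser5p reads over the TSS windows, and 11684907 to 25696364 NTD and 18045745 to 28745658 Ser2p reads over gene bodies. Levels are given as CPM, read counts scaled to a common library total, within each table after TMM scaling, so an NTD level and a Ser5p level are each relative to their own table and do not compare amounts of polymerase. Changes are log2 fold changes ± standard error from edgeR's quasi-likelihood test, with p adjusted (Benjamini-Hochberg) over all transcripts of the table, and a change is called where this is under 0.05. The labels do not say whether replicates are separate cultures, and the p-values then measure a spread between libraries that may be technical. Speer4cos and Nell1os had too few reads at the TSS for a test, which leaves 144 genes there, and all 146 were tested over bodies. The summed NTD level at the starts of 9 pluripotency genes (Pou5f1, Nanog, Sox2 and 6 others) was 846 CPM at 0 h, 755 at 6 h and 466 at 72 h, that of 7 primitive endoderm genes 69.5 and 135 CPM at 0 and 72 h, that of 5 neural genes 69.3 and 96.4, and that of 6 fibroblast genes 41.7 and 47.1. In such bulk samples fewer cells with Pol II at a gene and less Pol II per cell cannot be told apart.

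Most of these genes carry little Pol II. At the TSS the median NTD level was 8.17 CPM over the 146 genes, 13.7 over their sense genes and 12.7 over all genes. Other noncoding genes were lower still, with a median of 6.96 CPM, so a low level is not particular to this set. Epb41l4aos had the highest NTD level of the 146, with a mean of 216 CPM, and Speer4cos the lowest, with 0.708 CPM. Per length of the gene body, on the authors' FPKM scale (reads per length and depth), the noncoding genes were close to their sense genes: the median NTD level was 0.816 FPKM against 0.837, and the noncoding gene was the higher one in 78 of 145 pairs. In equal TSS windows it was the higher one in 52 of 145 pairs for NTD and 42 for Ser5p.

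The extremes of the body levels were Rab26os for NTD, with 49.6 FPKM on average and 32.8 to 81.0 over the libraries, and Zbtb11os1 for Ser2p, with 14.9 FPKM and 6.99 to 22.1. Their sense genes had 4.43 FPKM NTD (Rab26, a vesicle GTPase) and 2.25 FPKM Ser2p (Zbtb11, a zinc-finger protein). Rab26os spans only chr17:24528251-24528744, so its whole body lies within 1 kb of its start and its body level includes promoter Pol II. Zbtb11os1 is short too, at chr16:55973268-55974617, and its start lies 813 bases from a start of Zbtb11. Its body level thus also includes promoter Pol II. The bodies of Rab26 and Zbtb11 are much longer, so both comparisons are of unlike regions. Speer4cos had the lowest body level for both, 0.0315 FPKM NTD and 0.0306 FPKM Ser2p. The range over genes therefore far exceeded the range over libraries of any of these 3 genes.

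No gene of the set passed the test at 6 h against 0 h, and 2 and 4 h were not contrasted with 0 h one by one. Between 0 and 6 h edgeR called 0 of 144 at the TSS for NTD and for Ser5p, where 0.872% and 0.0611% of all genes were called (0.0524% higher and 0.00873% lower for Ser5p), and 0 of 146 over bodies for NTD and for Ser2p, where 0.064% and 0% of all genes were. At an unadjusted p under 0.05 there were 10, 28, 7 and 10 genes in these 4 tables. DESeq2 called 0, 0, 1 and 1. Without 1 library, the Ser5p count did not stay at 0: 17 genes were called lower at 6 h when replicate 1 of 0 h was left out and 7 when replicate 4 of 6 h was, and 2 and 1 were called without replicate 3 of 2 h or of 4 h.

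Over the whole time course the counts were as follows. For NTD at the TSS 13 of 144 genes changed between any treated time and 0 h (9.03%, against 15.1% of all genes), and over bodies 15 of 146 (10.3%, against 7.32%). For Ser5p at the TSS 30 of 144 changed (20.8%, against 14.2%), and for Ser2p over bodies 7 of 146 (4.79%, against 7.03%). Ino80dos, Lppos, Nphs1os and Peg3os were called in all 4 tables, Igf2os, Pla2g10os and Zfhx2os in 3, and 105 genes in none. For none of these 4 did every call hold under all 23 alternatives: Lppos, Nphs1os and Peg3os lost the Ser2p call with DESeq2, Ino80dos lost the calls at the TSS with the authors' scale factors and that for Ser5p also without replicate 4 of 2 h or replicate 3 of 48 h, and Lppos kept the NTD call over its body in 17 of 23.

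The largest group of changes was a loss of Ser5p at the TSS between 0 and 72 h. Of 144 genes, 22 were called (15.3%, against 8.8% of all genes), 19 lower and 3 higher, whereas 3.91% of all genes were called lower and 4.89% higher. The median change was -0.25 over the 144 genes and -0.06 over all genes. Of the 19, 14 lie beside a gene for a developmental transcription factor, most of them homeobox genes: Dlx6os2, Emx2os, Evx1os, Foxl2os, Hoxa11os, Lhx1os, Msx1os, Nkx2-2os, Otx2os1, Pax6os1, Ptf1aos, Six3os1, Vax2os and Wt1os. The other 5 are Bcas1os2, Dio3os, Gad1os, Kcnd3os and Nphs1os.

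Six3os1 (NR_015385), beside the gene of a homeobox factor of forebrain and eye, had the deepest loss. Its Ser5p level was 28.3 and 61.0 CPM at 0 h, 36.3, 21.3 and 38.2 at 2 h, 34.0, 12.4 and 22.1 at 4 h, 22.1, 14.2 and 28.5 at 6 h, 15.8 and 18.4 at 24 h, 13.4, 11.5 and 10.4 at 48 h, then 6.56 and 5.28 at 72 h. The 48 h libraries lay below all of 0 to 6 h except 1 library of 4 h, and the 72 h libraries lay below every earlier one. The change from 0 to 72 h was -2.87 ± 0.41 (edgeR adjusted p = 8.59e-06). The starts of its 8 transcripts gave 1 and the same result. NTD in the same window was 11.4 and 8.80 CPM at 0 h and 8.07 and 6.50 at 72 h, with values down to 2.04 between, and did not pass the test (-0.49 ± 0.41, edgeR adjusted p = 0.562).

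Hoxa11os (NR_015348) overlaps the start of Hoxa11, a gene of limb and urogenital patterning. It had 30.1 and 68.4 CPM of Ser5p at 0 h, 15.2, 19.7 and 30.0 at 6 h, 14.6, 13.3 and 15.6 at 48 h, then 10.9 and 11.1 at 72 h. The 0 h libraries were the highest of these 4 times and the 72 h libraries the lowest. The change was -2.12 ± 0.37 (edgeR adjusted p = 0.000153), and NTD went from 7.25 and 7.60 CPM to 9.41 and 3.76, where the groups overlap.

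Foxl2os (NR_003248), whose start lies 297 bases from that of the ovarian forkhead gene Foxl2, went from 33.8 and 82.4 CPM of Ser5p at 0 h to 20.8 and 16.9 at 72 h (-1.59 ± 0.34, edgeR adjusted p = 0.0018). Its NTD level was 6.22 and 4.8 CPM at 0 h and 9.41 and 11.3 at 72 h. Ser5p was lower and NTD higher at 72 h in both libraries, although the NTD difference did not pass the test (0.95 ± 0.37, edgeR adjusted p = 0.0956).

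Vax2os (NR_002873), beside the gene of a homeobox factor of the ventral eye, had 23.2 and 59.8 CPM of Ser5p at 0 h and 16.4 and 12.2 at 72 h (-1.50 ± 0.37, edgeR adjusted p = 0.00539). Its NTD level was 4.66 and 7.60 CPM at 0 h and 18.1 and 12.3 at 72 h. Here NTD rose (1.21 ± 0.36, edgeR adjusted p = 0.0208) while Ser5p fell, with no overlap of the 2 times in either. The same was called at the starts of 2 of its 3 other transcripts. At the start of NR_002871 Ser5p fell as well (-1.78, edgeR adjusted p = 0.00489), but NTD did not pass the test (-0.12, edgeR adjusted p = 0.927), so the opposite movement was not seen at every annotated start. The call of NTD at Vax2os over all times held in 14 of 23 alternatives. The span of Vax2os overlaps that of Vax2, and the median log2 NTD ratio of the pair was 0. The windows of Vax2os and Vax2 may thus hold much the same reads.

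Nkx2-2os, beside a homeobox gene of the ventral neural tube and pancreas, had 20.4 and 47.6 CPM of Ser5p at 0 h and 13.1 and 6.87 at 72 h (-1.73 ± 0.38, edgeR adjusted p = 0.00214). Wt1os, beside the Wilms tumour gene of kidney and gonad, had 30.1 and 59.8 CPM at 0 h and 21.3 and 18 at 72 h (-1.16 ± 0.26, edgeR adjusted p = 0.00252). Otx2os1, beside a homeobox gene of the anterior brain, had 17.6 and 43.3 CPM at 0 h and 7.65 and 8.98 at 72 h (-1.82 ± 0.38, edgeR adjusted p = 0.00122). In all 3 the 72 h libraries lay below the 0 h libraries. NTD at these 3 starts did not pass the test at 72 h, with adjusted p of 0.973, 0.873 and 0.357 by edgeR.

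Emx2os, Evx1os and Pax6os1 lie beside homeobox genes of the cortex, the primitive streak and the eye. Their Ser5p changes at 72 h were -1.60, -1.42 and -1.17, with edgeR adjusted p of 0.00884, 0.0135 and 0.0386. Pax6os1 was the closest of these to the threshold: it had 14.8 and 39.1 CPM at 0 h and 14.8 and 8.45 at 72 h, so the groups only just stay apart. Dlx6os1, by a homeobox gene of face and forebrain, was just outside it at this time: it had 16.2 and 21.4 CPM at 0 h and 11.5 and 7.40 at 72 h (-0.98 ± 0.35, edgeR adjusted p = 0.0662). Zeb2os and Hoxb5os did not pass the test, with -0.52 ± 0.37 and -0.01 ± 0.31 and edgeR adjusted p of 0.436 and 0.99. At Hoxb5os, in the HoxB cluster, Ser5p was 11.6 and 16.5 CPM at 0 h and 14.8 and 12.7 at 72 h, and NTD was 3.11 and 4.8 CPM and then 17.5 and 5.47 (1.31 ± 0.48, edgeR adjusted p = 0.0752).

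**Figure D1:**
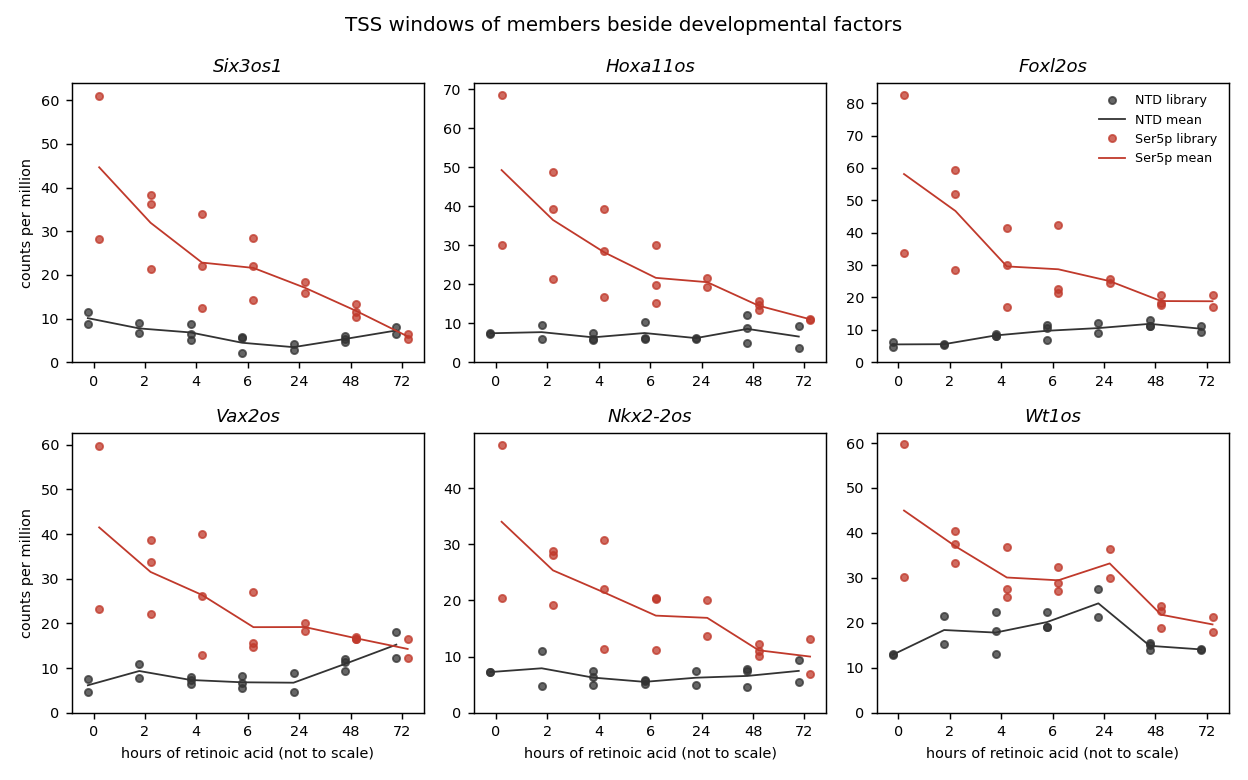
Pol II at the TSS of 6 opposite-strand noncoding RNA genes beside developmental transcription factor genes, by hours of retinoic acid. Each point is 1 library, in CPM of its own table, for NTD and Ser5p, and lines join the means. Ser5p at Six3os1 is 28.3 and 61.0 CPM at 0 h and 6.56 and 5.28 at 72 h, and the upper of the 0 h Ser5p points is replicate 4 in all 6 genes.

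At the 19 starts that lost Ser5p, NTD was called at 72 h in 2, lower at Nphs1os and higher at Vax2os. The median NTD change was -0.17, with 11 of 19 below 0, against a median Ser5p change of -1.60. NTD was low from the outset at some of these starts. At Hoxa11os, Foxl2os and Vax2os it was near the level of single fibroblast genes at 0 h (5.27 to 8.04 CPM). A fall from such a level would be hard to detect, so the lack of NTD calls does not show that total Pol II stayed the same. The 19 were chosen by the Ser5p contrast, so the Ser5p median is a description only. From 48 h against 6 h, which shares no library with that contrast, Ser5p was below 0 in 18 of the 19 with a median of -0.53, but only Nphs1os was called. The median of this contrast was -0.12 over the 144 tested genes and -0.001 over all genes. It was below 0 in 22 of 26 genes beside developmental factors, a list described below, and in 64 of the other 118. The 19 genes share libraries and are not replicates of each other.

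A library stood apart in this contrast. At 0 h replicate 4 was above replicate 1 in 17 of the 19 genes, with a median ratio of 2.16, whereas the median ratio over the 144 tested genes was 1.03. The medians over the 19 genes were 22.7 and 44.0 CPM for the 0 h libraries, 15.7, 14.2 and 22.4 at 6 h, 14, 11.5 and 10.9 at 48 h, then 11.5 and 8.98 at 72 h. Promoters were found for 15 of the 19 genes, 16 promoters in all, and their median was 16.5 CpGs. The median was 18 over the promoters of the sense genes of the set. It was 9 over those of the noncoding genes beside developmental factors. Both 72 h libraries lay below both 0 h libraries in all 19 genes. As the 19 were chosen by this contrast, that separation and the signs of change given next are descriptions only. Without replicate 4 of 0 h, the change stayed below 0 in all 19 with a median of -1.03, and 6 of the 22 genes were called (Hoxa11os, Nphs1os and Six3os1 lower, Atcayos, Lppos and Peg3os higher). Without replicate 3 of 72 h, 5 were called (Hoxa11os, Otx2os1 and Six3os1 lower, Atcayos and Peg3os higher), with a median of -1.44 over the 19. Six3os1 and Hoxa11os were the genes called lower in both cases.

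Counted over all 26 genes of the set beside developmental transcription factor genes, a list drawn up after these values had been seen and so given without a test, 14 were lower in Ser5p at 72 h and 0 higher. The change was below 0 in 25 of 26, with a median of -1.17. Over the other 118 genes 3 were higher and 5 lower, with a median of -0.11. NTD at the TSS of the 26 was called higher in 2 (Foxd2os and Vax2os) and lower in 0, with a median of -0.07. No gene of the 26 was called over bodies at 72 h for NTD or Ser2p. The Ser2p change over bodies was still below 0 in 25 of 26, with a median of -0.2. Over the other 120 genes it was below 0 in 70, with a median of -0.06. For NTD over bodies 18 of the 26 were below 0 and 7 above, with a median of -0.13. Of the other 120 genes 67 were below 0 and 53 above, with a median of -0.03. Summed Ser5p at starts of marker genes of other lineages was also lower at 72 h than at 0 h: 132 against 203 CPM for 7 primitive endoderm genes, 81.2 against 156 for 5 trophoblast genes, 106 against 140 for 5 neural genes and 82.7 against 108 for 4 mesoderm genes. Fibroblast genes had 61.8 against 66.2 CPM. The part of cell composition in the loss was not tested.

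The ratio of Ser5p to NTD was tested in 1 model over both antibodies, in which 0 stands for the typical transcript. At 6 h it was above 0 for 18 of 145 genes and below for 2 (13.8%, against 9.52% of all genes; 4.6% of all genes were above and 4.92% below). The count of 20 rests on single libraries: 12 and 6 genes were called without NTD replicate 3 or 4 of 6 h, and 11 and 5 without Ser5p replicate 1 or 4 of 6 h. The median over the 145 was 0.39, and over all genes 0.12. The highest was Six3os1, at 2.13 ± 0.36 (edgeR adjusted p = 0.00018), followed by Dlx6os2 at 1.88 ± 0.38 and Lhx1os at 1.60 ± 0.34 (edgeR adjusted p of 0.00226 and 0.00311). Of the 18, 13 lie beside developmental factors, as do 26 of all 146 genes, by a list drawn up after the values were seen. Also 13 of the 18 are among the 19 of 144 tested genes that lost Ser5p by 72 h. Those 19 were chosen from the same Ser5p data, so neither overlap is a test. The 2 below 0 were Fam120aos (-0.65 ± 0.18) and Ino80dos (-0.57 ± 0.18).

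The change of this ratio from 0 to 72 h, a test added after the values were seen, was called for 3 of 145 genes, all lower, against 18 of 22935 genes in all (0.0785%). They were Vax2os (-2.77 ± 0.57, edgeR adjusted p = 0.0293), Igf2os (-2.17 ± 0.45, adjusted p = 0.032) and Foxl2os (-2.60 ± 0.57, adjusted p = 0.0443). Just outside lay Otx2os1, Foxd2os and Six3os1, at -2.61, -2.02 and -2.44 with edgeR adjusted p of 0.0559, 0.0588 and 0.0746. The 3 calls depend on single libraries. With 1 library of 0 or 72 h left out, 0 to 8 genes were called, 0 in each case without either NTD library of 0 h, replicate 4 of Ser5p at 0 h, replicate 3 of NTD at 72 h or replicate 1 of Ser5p at 72 h. From 6 to 48 h the ratio was called for 0 of 145 genes by edgeR, where it was for 0% of all genes, and 7 had an unadjusted p under 0.05.

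**Figure D2:**
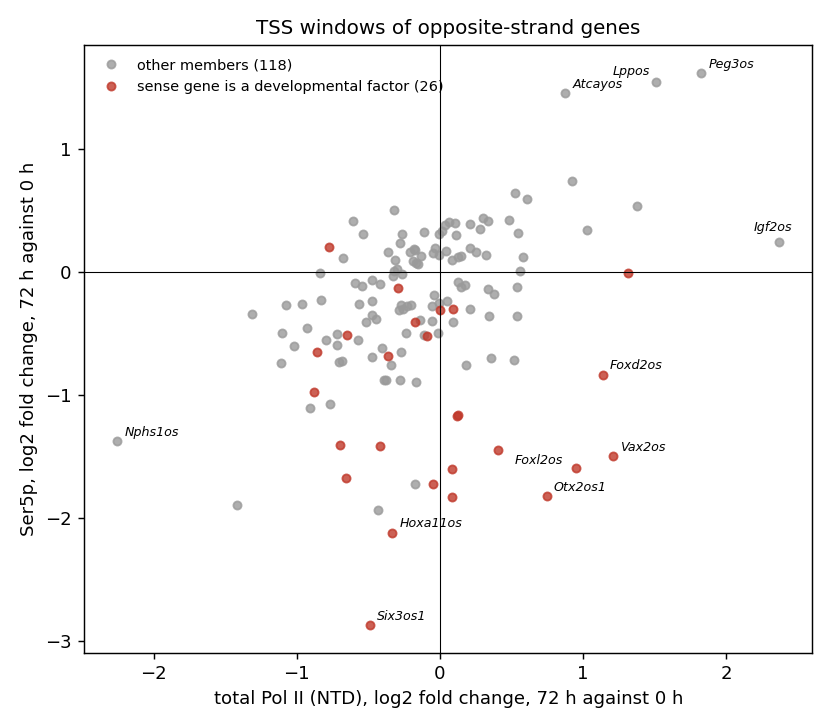
Change of Ser5p (vertical) against change of NTD (horizontal) at the TSS from 0 to 72 h, as log2 fold changes, 1 point per gene tested, with the 26 genes beside developmental transcription factors marked apart from the other 118. The 26 lie mostly below 0 in Ser5p (median -1.17) and on both sides of 0 in NTD (median -0.07).

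Gains at promoters were seen mostly at other genes, and late. For NTD at the TSS, 10 genes changed between 6 and 48 h (6.94%, against 10.1% of all genes), 5 up and 5 down (3.56% and 6.52% of all genes), and 11 between 0 and 72 h (7.64%, against 9.06%), 8 up and 3 down (5.54% and 3.51% of all genes). The counts for Ser5p between 6 and 48 h were 3 up and 3 down, 4.17% against 6.74% of all genes, of which 3.56% were up and 3.18% down. None of these 3 totals exceeds the share of all genes. Without replicate 4 of 6 h or replicate 3 of 48 h the 10 became 6, and without replicate 1 of 0 h or replicate 3 of 72 h the 11 became 7 and 6. For Ser5p, 3 were left without replicate 1 of 6 h or replicate 3 of 48 h.

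Lppos (NR_037954) rose in both tables. It starts 305 bases from Lpp, the gene of a LIM-domain protein of cell contacts, so their windows share most of their length. NTD was 30.6 and 47.2 CPM at 0 h, 30.7, 31.1 and 52.0 at 6 h, 71.3, 68.6 and 69.1 at 48 h, then 88.0 and 133 at 72 h. All 48 and 72 h libraries lay above all of 0 and 6 h. The changes were 0.85 ± 0.20 from 6 to 48 h and 1.51 ± 0.23 from 0 to 72 h (edgeR adjusted p of 0.00284 and 8.58e-06). Ser5p went from 27.3 and 48.2 CPM at 0 h to 79.8 and 138 at 72 h, 1.55 ± 0.28 (edgeR adjusted p = 0.000291). Of all 22141 other genes, Lpp had the NTD profile most like that of Lppos over the 17 libraries (r = 0.975), and it was also first for Ser5p over 18 libraries (r = 0.984). The overlap of the windows puts the same reads into both.

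Peg3os and Igf2os lie within imprinted regions and overlap the spans of the paternally expressed genes Peg3, a zinc-finger gene, and Igf2, a growth factor. Peg3os (NR_023846) had 9.85 and 6.80 CPM of NTD at 0 h, 5.79, 6.11 and 7.81 at 6 h, 12, 12.8 and 20.7 at 48 h, then 26.9 and 30.8 at 72 h (1.83 ± 0.30 from 0 to 72 h, edgeR adjusted p = 3.04e-05). Its Ser5p level rose from 11.6 and 9.16 to 27.9 and 37.0 CPM (1.62 ± 0.29, edgeR adjusted p = 0.000262). Peg3 itself rose by 1.75 ± 0.22 in NTD. The noncoding gene and Peg3 thus moved the same way in both tables.

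Igf2os (NR_002855) had the largest NTD gain of the genes called at 72 h: 6.74 and 6.80 CPM at 0 h, 7.52, 10.7 and 4.46 at 6 h, 12, 17.0 and 15.5 at 48 h, then 24.9 and 43.1 at 72 h (2.37 ± 0.31, edgeR adjusted p = 3.68e-07). Ser5p there was 21.3 and 31.7 CPM at 0 h, 12, 10.1 and 15.7 at 6 h, 18.2, 15.6 and 14.7 at 48 h, then 22.9 and 39.1 at 72 h. It changed over the time course (edgeR adjusted p = 0.00352), and the lowest library of these was 1 of 6 h, while the 0 and 72 h groups overlap (0.25 ± 0.28, edgeR adjusted p = 0.656). Igf2 rose in NTD by 1.52 ± 0.34 (edgeR adjusted p = 0.00168).

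Atcayos (NR_015477) rose while its sense gene fell. Atcay encodes caytaxin, a protein of neurons. Atcayos had 21.8 and 26.2 CPM of Ser5p at 0 h, 22.1, 25.3 and 24.3 at 6 h, 40.1, 42.6 and 41.6 at 48 h, then 49.7 and 81.4 at 72 h. Atcay had 27.3 and 20.1 CPM at 0 h, 22.6, 18.7 and 26.2 at 6 h, 13.4, 13.3 and 10.9 at 48 h, then 9.29 and 10.0 at 72 h. From 6 to 48 h neither gene's groups overlap, and the changes were 0.80 ± 0.21 and -0.85 ± 0.23 (edgeR adjusted p of 0.0126 and 0.015). From 0 to 72 h they were 1.46 ± 0.25 and -1.31 ± 0.30 (edgeR adjusted p of 0.000138 and 0.00274). In NTD they were 0.70 ± 0.22 and -1.09 ± 0.28 from 6 to 48 h (edgeR adjusted p of 0.0285 and 0.00726). Over the 18 Ser5p libraries the profile of Atcay ranked 22859th of 22896 genes in likeness to that of Atcayos (r = -0.842).

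Foxd2os and Tspan2os gained NTD with their sense genes. Foxd2os, beside a forkhead gene, had 6.94, 6.11 and 7.06 CPM at 6 h and 25.3, 11.7 and 16.4 at 48 h (1.34 ± 0.29, edgeR adjusted p = 0.00134), and Foxd2 changed by 1.35 ± 0.31. The span of Foxd2 ends at base 114908898 of chromosome 4 and that of Foxd2os begins at 114909257. The median log2 NTD ratio of this pair was 0.067, so the 2 windows may hold much the same reads. Tspan2os, 202 bases from the start of the tetraspanin gene Tspan2, had 9.85 and 12 CPM at 0 h and 23.5 and 32.5 at 72 h (1.38 ± 0.29, edgeR adjusted p = 0.00088). All late libraries of both genes lay above the early ones. Uckl1os was called from 0 to 72 h at 1 of its 2 transcripts (1.03 ± 0.34, edgeR adjusted p = 0.044, against 0.83 and 0.258 at the other).

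The losses of NTD were led by Nphs1os and Zfhx2os. Nphs1os (NR_004443) lies inside Nphs1, the gene of nephrin, the filtration protein of kidney podocytes. Its NTD level was 22.3 and 19.6 CPM at 0 h, 37.0, 19.9 and 20.4 at 6 h, 6.66, 5.65 and 6.04 at 48 h, then 4.71 and 4.10 at 72 h. All late libraries lay below all early ones, with changes of -2.05 ± 0.29 from 6 to 48 h and -2.26 ± 0.36 from 0 to 72 h (edgeR adjusted p of 1.18e-06 and 1.9e-05). Ser5p fell by 1.88 on the log2 scale from 6 to 48 h (edgeR adjusted p = 2.75e-06), and Nphs1 fell by 1.79 in NTD.

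Zfhx2os, within a gene of a zinc-finger homeobox factor, had 28.9, 20.4 and 22.7 CPM of NTD at 6 h and 7.33, 9.04 and 6.04 at 48 h (-1.60 ± 0.27, edgeR adjusted p = 2.7e-05), and 29.0, 22.8 and 29.0 against 10.3, 9.63 and 12.3 CPM of Ser5p (-1.32 ± 0.23, edgeR adjusted p = 0.00014). The groups do not overlap in either. Ino80dos, beside the gene of an INO80 chromatin remodelling subunit, had 72.3, 60.6 and 77.7 CPM of NTD at 6 h and 32.6, 41.1 and 38.9 at 48 h (-0.90 ± 0.18, edgeR adjusted p = 0.000533), with Ino80d at -0.89 ± 0.19. The span of Ino80d ends at base 63114267 of chromosome 1 and that of Ino80dos begins at 63114471, so these windows may also hold much the same reads. Fam120aos and Man2c1os also fell in NTD from 6 to 48 h, by 0.62 and 0.53 (edgeR adjusted p of 0.021 and 0.0346), and Pla2g10os and Tnk2os from 0 to 72 h, by 1.31 and 1.02 (0.0268 and 0.0368). In Ser5p, Arhgap27os3 fell from 16.6, 11.6 and 10.9 CPM at 6 h to 5.47, 7.79 and 7.10 at 48 h (-0.92 ± 0.29, edgeR adjusted p = 0.0386), and Arhgap27 did not pass the test (-0.48 ± 0.23, adjusted p = 0.231).

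**Figure D3:**
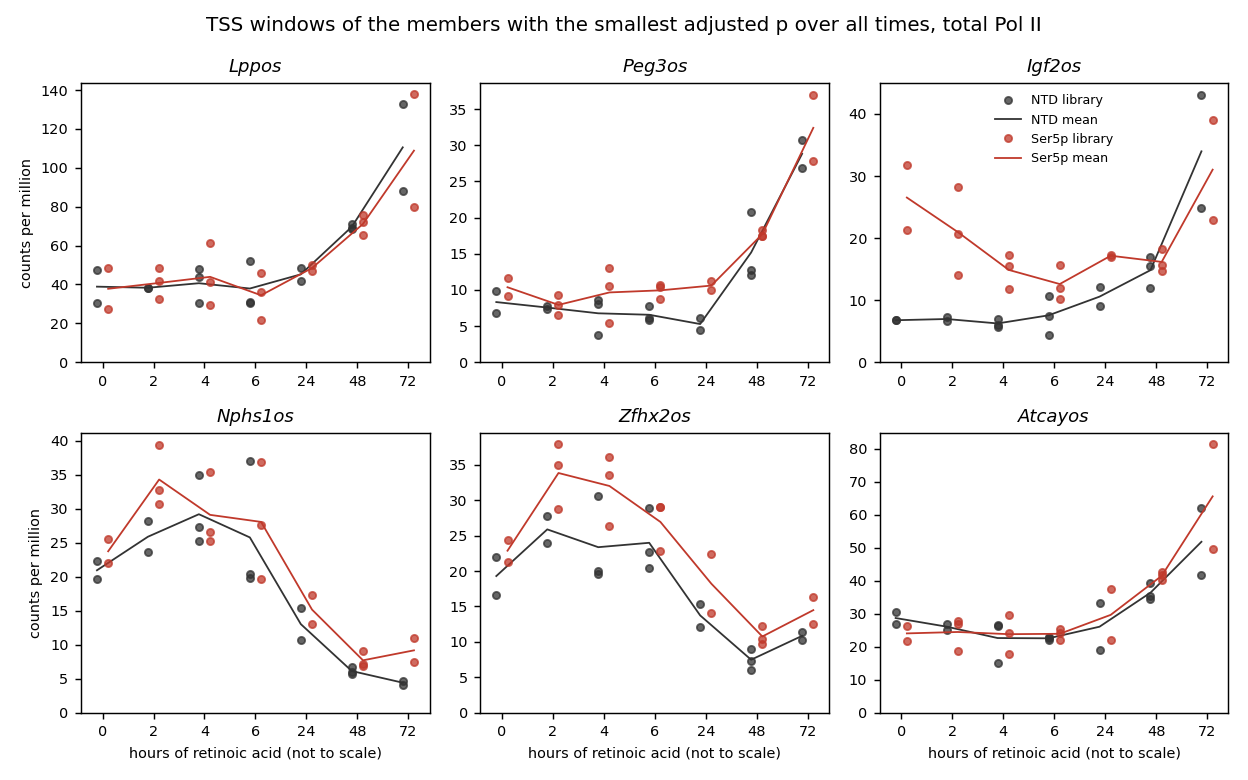
Pol II at the TSS of Lppos, Peg3os, Igf2os, Nphs1os, Zfhx2os and Atcayos by hours of retinoic acid, in CPM of each table. Points are libraries, lines join means. NTD at Igf2os climbs to 24.9 and 43.1 CPM at 72 h while Ser5p there has its lowest values at 4 and 6 h, and both antibodies fall at Nphs1os.

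Most called genes moved with their sense gene. Of the 22 called in Ser5p at 72 h, the sense gene was called in the same direction for 16 and in the other direction for 1, Atcay. Of the 10 called in NTD from 6 to 48 h it was 6 and 1. Among the 43 pairs with overlapping windows, 10 noncoding genes were called in Ser5p at 72 h and 8 of the sense genes with them. Among the 55 pairs whose windows lie apart, 2 were called, Nkx2-2os and Six3os1, both with their sense genes. Six3 had 8.34 and 35.4 CPM of Ser5p at 0 h and 6.01 and 4.23 at 72 h (-2.01 ± 0.50, edgeR adjusted p = 0.00667), and Nkx2-2 changed by -2.14 ± 0.38 (edgeR adjusted p = 0.000177). The starts of Six3os1 and Six3 are 2438 bases apart and those of the Nkx2-2 pair 2319, so their windows do not overlap. The rest of the 22, Atcayos, Bcas1os2, Dlx6os2, Emx2os, Msx1os, Nphs1os, Otx2os1, Peg3os, Vax2os and Wt1os, are in neither group, as their pairs lack a distance. The spans of the Wt1 and Emx2 pairs nearly meet, and the median log2 NTD ratio was 0 in both. The spans of the Vax2 pair overlap, and its median log2 NTD ratio was 0 too. Where reads are shared, movement of the 2 genes together is in part the same reads counted for both. Of the sense genes themselves, 30 of 137 were called in Ser5p at 72 h, 24 lower and 6 higher, which is 21.9%, against 15.3% of the noncoding genes and 8.8% of all genes.

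The share of Pol II between the 2 genes of a pair was tested as the log2 ratio of their CPM (0.5 added to each) with limma, with p adjusted over 1994 opposite-strand pairs for NTD and 2018 for Ser5p. From 6 to 48 h the NTD ratio changed for 4 of 143 pairs, 2.8%, against 2.46% of all pairs. Atcayos gained on Atcay (1.82 ± 0.39, limma adjusted p = 0.0368) and Rptoros on Rptor (0.78 ± 0.17, 0.0408), whereas Epb41l4aos lost against Epb41l4a (-1.25 ± 0.22, 0.0146) and Zfhx2os against Zfhx2 (-1.12 ± 0.23, 0.0307). For Ser5p the ratio changed for 3 pairs, against 2.13% of all pairs: Atcayos (1.60 ± 0.30, limma adjusted p = 0.0139), Epb41l4aos (-1.13 ± 0.15, 0.00248) and Tomm6os (-0.38 ± 0.08, 0.0192). The NTD count was 0 without replicate 3 of 48 h, 1 without replicate 3 of 6 h and 2 without replicate 4 of 2 h, replicate 3 of 4 h or replicate 1 or 4 of 6 h. The Ser5p count was 1 without replicate 1 of 6 h or replicate 3 of 48 h.

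Epb41l4aos is the strongest promoter of the set and Epb41l4a encodes a band 4.1 family protein. Epb41l4aos had 202, 224 and 219 CPM of NTD at 6 h and 160, 153 and 168 at 48 h, whereas Epb41l4a had 28.4, 15.8 and 27.9 and then 35.3, 44.5 and 45.8. The noncoding gene was lower and the coding gene higher at 48 h with no overlap in either. Only the coding gene passed the test by itself (0.80 ± 0.21, edgeR adjusted p = 0.00845, against -0.43 ± 0.18 and 0.125 for Epb41l4aos). Over all times the NTD ratio changed for 2 pairs, against 1.86% of all pairs, Epb41l4aos and Fbxl12os, and the Ser5p ratio for 2, against 2.28%, Epb41l4aos and Atcayos. The NTD count over all times ranged from 0 to 3 as single libraries were left out.

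**Figure D4:**
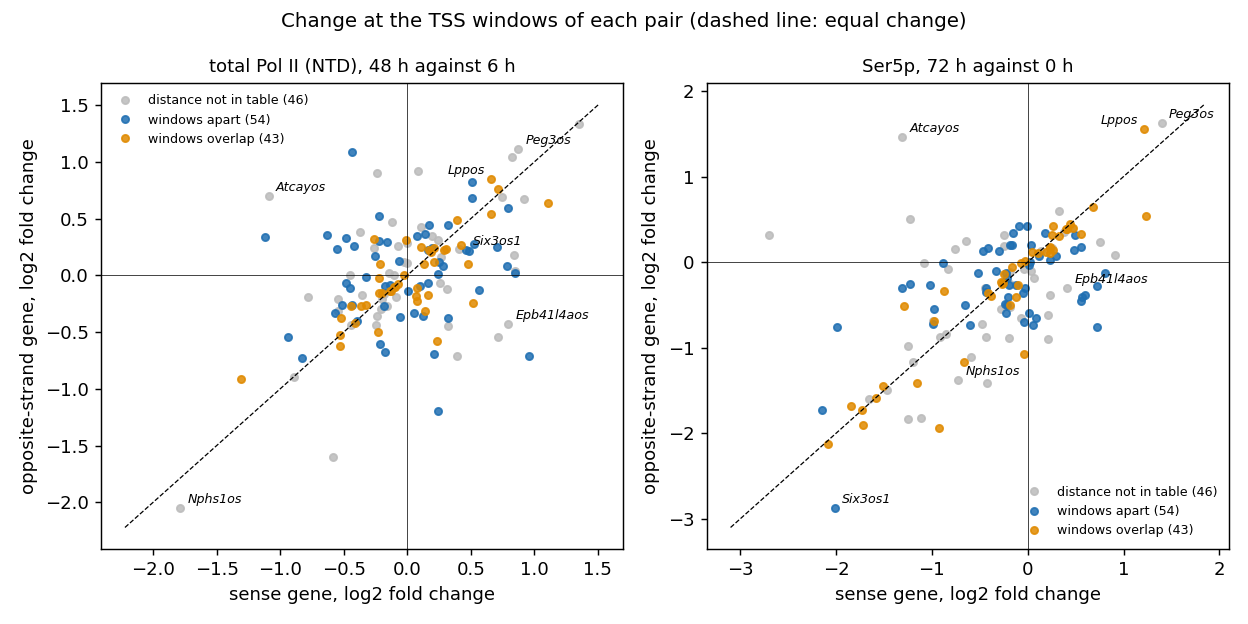
Change of the noncoding gene (vertical) against change of its sense gene (horizontal), as log2 fold changes, for NTD from 6 to 48 h and Ser5p from 0 to 72 h, 1 point per pair. Points are marked by whether the TSS windows overlap, lie apart or have no known distance. Atcayos lies in the quadrant where the noncoding gene is higher and the sense gene lower in both panels.

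Over gene bodies Peg3os and Lppos rose, and Ino80dos, Pla2g10os and Nphs1os fell. For NTD 10 of 146 changed from 6 to 48 h (6.85%, against 9.17% of all genes), 3 up and 7 down (3.53% and 5.64% of all genes), and 11 from 0 to 72 h (7.53%, against 4.27%), 4 up and 7 down (2.69% and 1.58% of all genes). For Ser2p, the mark of elongation, 6 changed from 6 to 48 h (4.11%, against 5.11%), 2 up and 4 down (2.34% and 2.77% of all genes), and 4 from 0 to 72 h (2.74%, against 1.46%), 3 up and 1 down (1.1% and 0.366% of all genes). The counts at 72 h do not stand above those of all genes in every setting. For NTD there were 3 without either library of 0 h, 6 without replicate 3 of 72 h and 25 without replicate 1 of 72 h, and 2 without replicate 4 of 0 h and replicate 3 of 72 h together. For Ser2p there were 0 without either library of 0 h or replicate 3 of 72 h, and 8 without replicate 1 of 72 h. From 6 to 48 h, NTD had 6 without replicate 3 of 6 h and 17 without replicate 2 of 48 h.

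Peg3os rose in both. Its body held 0.721 and 0.553 CPM of NTD at 0 h, 0.366, 0.749 and 0.726 at 6 h, 0.873, 1.68 and 1.71 at 48 h, then 2.10 and 3.30 at 72 h (2.12 ± 0.33 from 0 to 72 h, edgeR adjusted p = 0.00258). Ser2p was 0.682 and 0.758 CPM at 0 h and 1.63 and 2.12 at 72 h (1.37 ± 0.29, edgeR adjusted p = 0.0281). The 72 h libraries were the highest in both. Peg3os is short and lies inside Peg3, whose body rose by 1.72 ± 0.19 in NTD and 1.46 ± 0.17 in Ser2p.

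The body of Lppos held 0.910 and 0.674 CPM of Ser2p at 0 h, 1.08, 1.17 and 0.929 at 6 h, 1.96, 2.81 and 1.95 at 48 h, then 2.09 and 4.29 at 72 h (2.01 ± 0.32, edgeR adjusted p = 0.0053). Every late library exceeded every early one. The span of Lppos, chr16:24392556-24393655, holds the start of Lpp. Its body reads thus lie at both starts and cannot be told apart from promoter Pol II of either gene. A comparison with the body of Lpp is one of unlike regions. The much longer body of Lpp did not pass the Ser2p test (0.25 ± 0.09, edgeR adjusted p = 0.172) and rose by 0.44 ± 0.12 in NTD. Igf2os rose by 1.07 ± 0.22 in NTD (edgeR adjusted p = 0.0118), from 4.85 and 5.25 CPM at 0 h to 7.90 and 13.2 at 72 h. Its Ser2p groups overlap (5.09 and 6.99 against 6.26 and 11.2 CPM). Tspan2os rose by 0.63 ± 0.14 in NTD (edgeR adjusted p = 0.0171), and Rsf1os1 rose by 0.38 ± 0.09 in Ser2p (edgeR adjusted p = 0.0453).

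Ino80dos fell from a high level after 6 h. NTD was 81.9 and 119 CPM at 0 h, 137, 147 and 172 at 6 h, 62.3, 78.1 and 52.4 at 48 h, then 55.2 and 68.5 at 72 h. Ser2p was 64.5 and 54.1, then 92.7, 93.8 and 90.8, then 51.6, 62.7 and 49.7, then 46.8 and 55.1 CPM. The 6 h libraries were the highest of these 4 times in both, and the falls from 6 to 48 h were -1.24 ± 0.17 and -0.76 ± 0.13 (edgeR adjusted p of 0.000351 and 0.00268). Ino80d fell less over its body, by 0.59 and 0.37, a difference between the genes that was not tested.

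Pla2g10os, which starts 648 bases from the phospholipase gene Pla2g10, held 11, 8.75 and 9.87 CPM of NTD at 6 h and 4.30, 4.31 and 4.54 at 48 h (-1.18 ± 0.13, edgeR adjusted p = 8.2e-05). Its Ser2p level fell from 7.87, 7.93 and 7.16 to 5.41, 5.77 and 5.00 CPM (-0.50 ± 0.11, edgeR adjusted p = 0.014). Nphs1os fell by 1.43 in NTD and 1.02 in Ser2p (edgeR adjusted p of 0.000792 and 0.00265), and Zfhx2os by 1.38 in NTD (0.00321). In these 3 genes the 48 h libraries lay below the 6 h libraries.

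Zfp652os and Dgkeos, beside a zinc-finger gene and the gene of a diacylglycerol kinase, fell by less. Zfp652os had 11.5, 13.8 and 12.2 CPM of NTD at 6 h and 8.54, 9.24 and 9.50 at 48 h (-0.46 ± 0.10, edgeR adjusted p = 0.00823), and it fell by 0.59 in Ser2p (0.0038). Zfp652 itself did not pass the test (-0.02 ± 0.12, edgeR adjusted p = 0.935). Dgkeos had 11.3, 11.3 and 11 CPM at 6 h and 6.55, 6.88 and 5.74 at 48 h (-0.80 ± 0.14, edgeR adjusted p = 0.00207), and Dgke fell with it by 0.64. Map2k3os, Slc13a2os and Tnk2os fell in NTD from 0 to 72 h, by 0.64, 0.83 and 1.10.

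**Figure D5:**
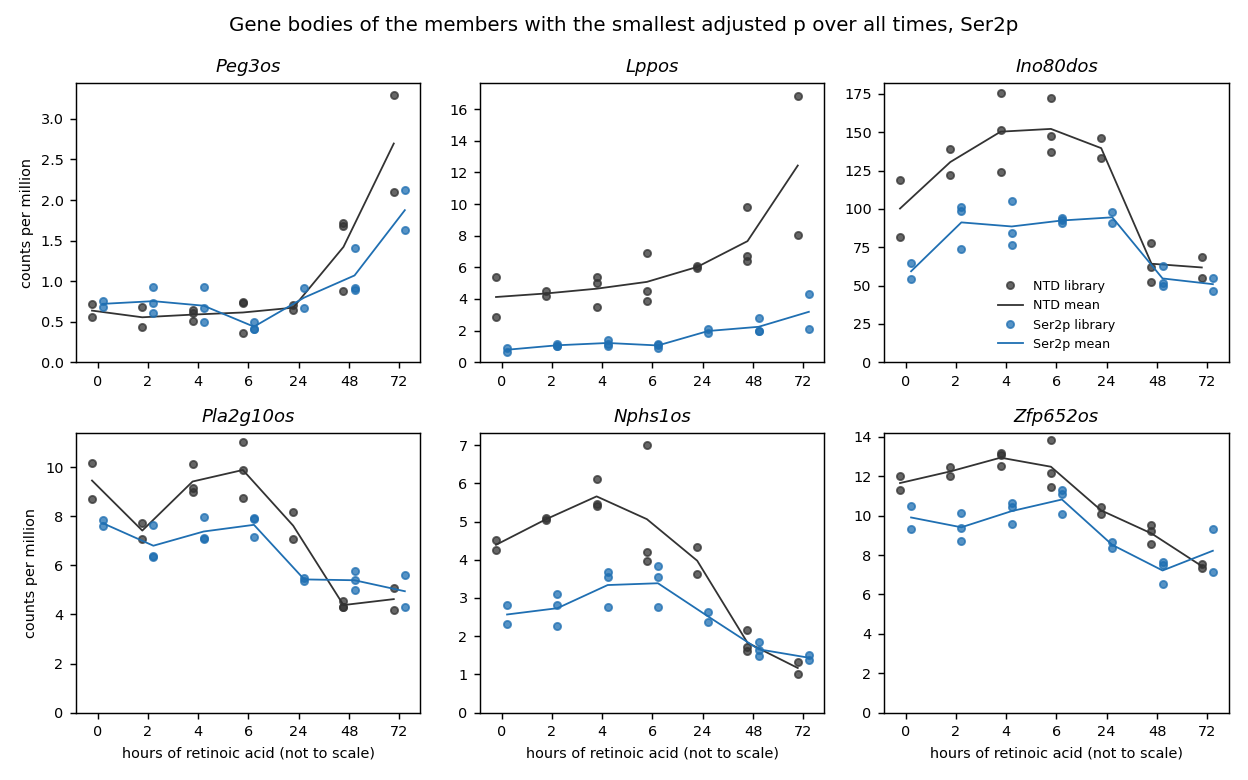
NTD and Ser2p over the bodies of Peg3os, Lppos, Ino80dos, Pla2g10os, Nphs1os and Zfp652os by hours of retinoic acid, in CPM of each table. Points are libraries, lines join means. Peg3os and Lppos end highest at 72 h, and Ino80dos is lower at 48 h than at 6 h in both forms.

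The bodies of Six3os1 and Vax2os, which lost Ser5p at their starts, did not pass the test at 72 h. Six3os1 had 9.37 and 7.66 CPM of NTD over its body at 0 h and 8.80 and 7.58 at 72 h (-0.06 ± 0.17, edgeR adjusted p = 0.894), and 9.73 and 11.4 against 9.37 and 8.07 CPM of Ser2p (-0.28 ± 0.12, adjusted p = 0.222). Vax2os had 9.08 and 9.63 CPM of NTD and then 10.8 and 7.63 (-0.04 ± 0.16, edgeR adjusted p = 0.932). Per length, their NTD levels, 0.744 FPKM for Six3os1 and 0.684 for Vax2os, were below the median of the 146 genes.

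Ser2p relative to NTD over bodies at 6 h was called for 42 of 146 genes, 12 above and 30 below the typical transcript, 28.8% against 30% of all genes (10.8% above and 19.1% below). The lowest were Rab26os (-2.42 ± 0.36) and Lppos (-2.29 ± 0.32), with edgeR adjusted p of 3.14e-05 and 1.78e-05, and the highest Hmgb4os (1.46 ± 0.29, edgeR adjusted p = 0.000683). The bodies of Rab26os and Lppos are short and lie at their starts, where promoter Pol II is counted too. The side of 0 depends on the scaling: with the authors' scale factors 84 were called, 67 above and 17 below. The ratio changed from 6 to 48 h for 0 of 146 genes, against 0.00449% of all genes, and from 0 to 72 h for 0, against 0%, with 7 and 9 genes at an unadjusted p under 0.05 by edgeR.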

How the data were processed

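The data are ChIP-seq libraries of Pol II from E14 embryonic stem cells, 53 of the 157 samples in the labels. Other antibodies and inputs are not analysed here. Groups and replicate numbers come from the sample titles. Per the submitters' processing notes, Bowtie2, SAMtools, MACS2 and DESeq2 were used with builds mm10 and dm6. For versions and the counting tool: not given in the sources used here. The authors deposited whole-number read counts per RefSeq transcript, a normalized signal that is the count times 1 factor per library, and FPKM over gene bodies, used here for levels. The 14 columns of group means were not used.

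Counts were fitted per table with edgeR 4.0.16 (R 4.3.3), with TMM scaling, filterByExpr, time as a factor and all libraries of the table. Ratios of pairs used limma 3.58.1. Alternatives were DESeq2 1.42.0, DESeq2 size factors, the authors' factors, no filter on low counts, a replicate block and leaving out libraries. The scripts were tested on simulated data. Starts with few reads have wide counting error.

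Genes named are, by table, the 6 with the smallest adjusted p over all times, the 3 largest rises and falls from 6 to 48 h, the highest and lowest levels, and a list beside developmental genes. Hoxb3os and Irx3os of that list are not measured in these tables. Others named were chosen after their values were seen. The set and lists were chosen with earlier results of these data known.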

Additional observations from a re-analysis of the deposited data

How the results depend on the processing

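Counts of called genes are given in the order of the text. With DESeq2's own test, NTD at the TSS from 0 to 72 h had 6 genes (11 by edgeR), Ser2p bodies 2 (4 by edgeR), and from 0 to 6 h NTD and Ser2p bodies had 1 each (0 by edgeR). With the authors' factors, NTD at the TSS from 6 to 48 h had 4 (10), the level of Ser2p against NTD at 6 h 84 (42), and the change of Ser5p against NTD from 0 to 72 h 5 (3), as it did without the filter on low counts. Zfp85os changed side for Ser2p against NTD with the authors' factors, at 0.002 (adjusted p = 0.98) against -0.25. Without NTD replicate 4 of 0 h and replicate 3 of 72 h together, NTD at the TSS from 0 to 72 h had 5, NTD bodies 2 from 0 to 72 h (11) and 9 over all times (15), and Ser5p against NTD from 0 to 72 h 0.

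The replicate block gave 17 for NTD bodies from 6 to 48 h (10), 1 from 0 to 6 h, 2 for Ser2p bodies from 0 to 72 h (4), 2 for Ser5p at the TSS from 0 to 6 h (0), 6 for Ser5p against NTD from 0 to 72 h (3) and 1 for the NTD ratio to the sense gene over all times (2). The replicate numbers are not shown to pair libraries: of same-number pairs, 18 of 32 at the TSS and 26 of 32 over bodies for NTD, 18 of 37 for Ser5p and 17 of 37 for Ser2p had a correlation of deviations over 0.1, and 8 of 17, 8 of 17, 13 of 18 and 11 of 18 libraries correlated best with their own number.

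Leaving out 1 library at a time gave, for NTD at the TSS, 10 to 18 over all times, 0 to 0 from 0 to 6 h, 6 to 11 from 6 to 48 h and 6 to 13 from 0 to 72 h. For Ser5p at the TSS it gave 24 to 33, 0 to 17, 3 to 9 and 5 to 25. For NTD bodies it gave 11 to 20, 0 to 0, 6 to 17 and 3 to 25, with 3 without either 0 h library and 25 without replicate 1 of 72 h. For Ser2p bodies it gave 6 to 10, 0 to 0, 4 to 7 and 0 to 8, with 0 without either 0 h library or replicate 3 of 72 h. The level of Ser5p against NTD at 6 h ranged from 5 to 22, with 5 without Ser5p replicate 4 of 6 h, its change from 0 to 72 h from 0 to 8, and the level of Ser2p against NTD from 28 to 49. Ratios to the sense gene ranged from 0 to 3 (NTD, all times), 0 to 5 (NTD, 6 to 48 h, 0 without replicate 3 of 48 h), 2 to 3 and 1 to 3 (Ser5p). The cause was not tested.

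Of 145 results for single genes, 44 stayed called under every alternative run. Of their 2933 alternatives, 2499 kept the call, 433 lost it and 1 changed side. Groups of 2 or 3 libraries and few reads at weak starts limit what can be called.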
